A study of Mus musculus with 2 samples.

Results

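CTCF and the cohesin complex fold chromosomes into loops. Here 9 genes of this machinery are described: Ctcf, the cohesin ring genes Smc1a, Smc3 and Rad21, the alternative ring subunits Stag1 and Stag2, the loader gene Nipbl, and the paired regulators Pds5a and Pds5b. They were chosen by symbol, and no measured value entered the rule. All 9 were found by Ensembl identifier among 43346 Ensembl genes listed, and 49 of their transcripts were listed with them.

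The data were total RNA-seq of G1E-ER4 cells in 2 libraries, which the labels call biological replicates 1 and 2. G1E is an immortalized mouse erythroid precursor line (strain C57BL/6J per the labels) that lacks functional Gata1, and G1E-ER4 is a clone of it that carries GATA1 fused to a ligand-binding domain of the estrogen receptor. Both libraries came from cells treated with 10 nM 17β-estradiol for 24 h, which switches the fusion protein on and starts erythroid differentiation. Untreated cells, parental G1E cells and other time points were not analysed here, so there was 1 group, no contrast and no test. Levels are given for each library and as mean ± SD (n = 2).

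Cohesin is a ring of the SMC proteins SMC1A and SMC3, closed by RAD21 and bound by either STAG1 or STAG2. NIPBL, with its partner MAU2, drives cohesin to extrude DNA into loops. CTCF bound to DNA in the right orientation stops the moving ring, so that loops form between CTCF sites, while PDS5 proteins and WAPL limit how long the ring stays on DNA. In erythroid cells these loops border and partition domains such as those of the globin genes.

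The libraries held 50277914 and 47478888 expected counts in all. Protein-coding genes of the nuclear genome received 14373925 and 13901316 of them. Those genes took only 22.7% and 22.9% of all TPM (a level corrected for transcript length and scaled to a fixed total). The TPM values below therefore read 4.41 and 4.37 times lower than they would on a scale of nuclear protein-coding genes alone. The erythroid label was checked against 10 markers, all detected, with a summed level of 1442 and 1475 TPM. Most of that sum was Hbb-bs, at 993.85 and 1008.37 TPM, and the lowest marker was Slc4a1, at 3.10 and 3.32 TPM. Gata1 stood at 57.58 and 65.70 TPM, and reads of the fusion and of the cell's own gene cannot be told apart. Of 14 markers of other cell types, 4 were detected. The 3 megakaryocyte markers summed to 26.65 and 19.53 TPM and the 3 mast cell markers to 27.63 and 29.11 TPM, almost all of the latter from Cpa3. The 4 myeloid markers summed to 0.32 and 2.14 TPM, the 2 stromal and endothelial markers to 0.13 and 0 TPM, and both lymphoid markers were at 0. Their part in the levels below was not tested. In bulk RNA a smaller share of cells and less RNA per cell cannot be told apart.

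All 9 looping genes were detected, meaning a level of 1 TPM or more in both libraries, against 40.2% of all nuclear protein-coding genes. Their median level was 40.7 TPM, and the median of the 8620 detected genes was 9.76 TPM. The lowest of the 9, Stag1, still lay above 73.2% of the detected genes, and the highest, Rad21, above 94.2%. Together the 9 took 56021 and 53616 expected counts, which gave 0.170% and 0.168% of the TPM that nuclear protein-coding genes held. None of the 9 was 2-fold or more apart between the libraries, against a background of 1.95% of genes with a mean level of 1 TPM or more.

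Rad21 encodes the kleisin, the subunit that bridges the SMC heads. It stood at 73.58 TPM in replicate 1 and 72.51 TPM in replicate 2, the highest level of the 9 (chr15:51962240-51991747, minus strand, mm10). Smc3 was at 42.38 and 45.22 TPM (chr19:53600398-53645833), and Smc1a at 40.44 and 40.93 TPM (chrX:152016428-152062694), both on the plus strand. The SMC genes were thus close in level, with Smc1a at 0.930 ± 0.0347 (SD, n = 2) of Smc3, and every Smc3 value lay above every Smc1a value. Rad21 exceeded Smc1a 1.80 ± 0.0339 times and Smc3 1.67 ± 0.0938 times, so the kleisin transcript was the more abundant in both libraries although the subunits join the ring in equal number.

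Stag2 stood at 58.33 and 55.69 TPM (chrX:42149317-42277185, plus strand), and Stag1 at 20.06 and 19.72 TPM (chr9:100597798-100959375, plus strand). Their proteins occupy the same place on RAD21, and a ring carries one or the other. Stag2 exceeded Stag1 2.87 ± 0.0592 times, and Stag1 made 25.6% and 26.2% of the sum of both. That sum, 78.39 and 75.41 TPM, was 1.05 ± 0.0179 times the level of Rad21. At gene level the kleisin and its STAG partners were therefore nearly even.

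Pds5a stood at 69.66 and 69.49 TPM (chr5:65605721-65698273, minus strand), and its paralog Pds5b at 20.52 and 19.49 TPM (chr5:150673739-150810690, plus strand). PDS5 proteins bind RAD21 and act both in release of the ring and in its protection. Pds5a exceeded Pds5b 3.48 ± 0.121 times and made 77.2% and 78.1% of their sum. In each of the STAG and PDS5 pairs, the same paralog was far the more abundant in both libraries.

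Nipbl, the loader gene, was at 32.04 and 32.60 TPM (chr15:8290617-8444463, minus strand), and Ctcf, which encodes the zinc finger protein that anchors loops, at 28.13 and 29.50 TPM (chr8:105636568-105682922, plus strand). The longest listed transcript of the group is that of Nipbl, at 8815 nt. Nipbl drew more expected counts than Rad21 (9189 and 8881 against 8457 and 7912) at a far lower level per length. Rad21 exceeded Ctcf 2.54 ± 0.112 times.

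In descending order of mean level the genes were Rad21, Pds5a, Stag2, Smc3, Smc1a, Nipbl, Ctcf, Pds5b and Stag1. The values of neighbours in this order overlapped between libraries only for Pds5b and Stag1. Their means, 20.0 ± 0.728 and 19.9 ± 0.240 TPM, did not differ beyond their spread. The other 7 pairs of neighbours kept their order whichever library each value was taken from. This order holds for all transcripts of a gene summed. Over transcripts with a complete coding sequence only, Smc1a, at 28.15 and 29.03 TPM, lay below Nipbl, at 32.04 and 32.60 TPM. Stag1, at 7.53 and 6.28 TPM, then lay below Pds5b, at 14.94 and 16.00 TPM.

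**Figure D1:**
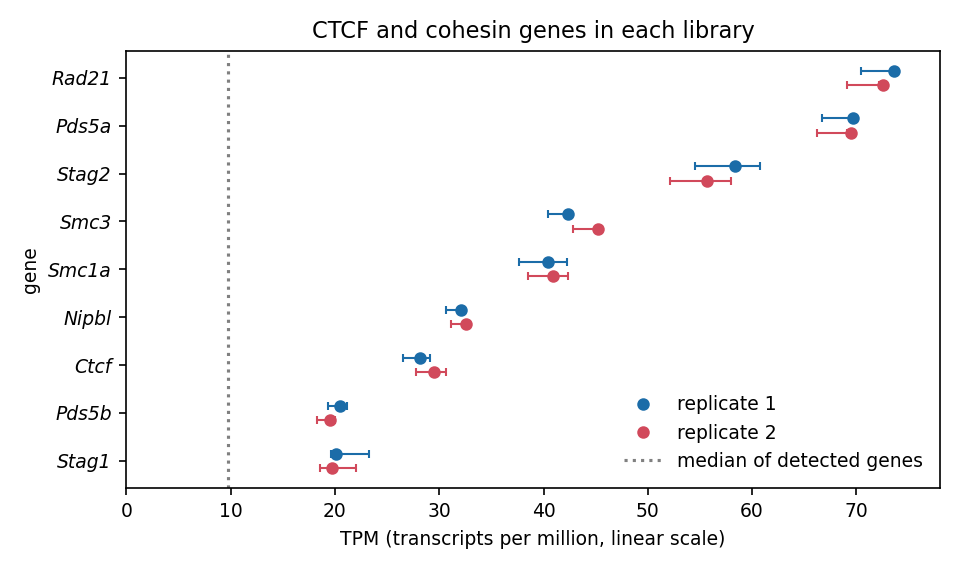
Level of each gene in TPM on a linear axis, with 1 point per library. Whiskers are the deposited credibility bounds (their level is not given in the headers), which belong to the posterior mean level and need not centre on the point (for Rad21, Pds5a and Nipbl, each listed with 1 transcript, the points lie just above them), and the dotted line is the median of detected genes, 9.76 TPM. All points lie to the right of that line, and among neighbours only the points of Pds5b and Stag1 overlap between libraries. Whiskers also overlap for Smc3 and Smc1a, and for Rad21 in replicate 2 and Pds5a in replicate 1.

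The libraries resembled each other closely in these genes. The log2 ratio of replicate 2 over replicate 1, with a pseudocount of 0.1 TPM, ran from -0.07 for Pds5b to 0.09 for Smc3. Its median absolute size was 0.025 over the 9 genes and 0.157 over the detected genes. The detected genes had a lower median level, 9.76 against 40.7 TPM, and reached down to 1.04 TPM. Neither this comparison nor the shares below were matched for level, so whether the 9 genes differ from genes of like level was not tested. The highest replicate difference among the genes was that of Smc3. It was exceeded by 68.2% of nuclear protein-coding genes with a mean level of 1 TPM or more. The difference of Pds5a was exceeded by 98.8% of them.

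For Stag1, Smc3 and Stag2 the replicate difference depended on the measure. Stag1 TPM differed by a log2 ratio of -0.02, but its expected counts were 2434 and 2081, a log2 ratio of -0.18 after TMM scaling. Smc3 and Stag2 lay closer together on scaled counts, with 0.03 in place of 0.09 for Smc3 and -0.02 in place of -0.07 for Stag2. The sign of the Nipbl ratio, 0.02 on TPM, became negative on scaled counts, at -0.0039. The 8 genes other than Stag1 had log2 ratios of scaled counts between -0.05 and 0.04.

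Every one of the 9 genes had a posterior SD of 0 for its expected count in both libraries, as did 84.1% of detected genes. By that measure no read of these genes was shared out with another gene. This holds for the paralogs too, although the coding sequences of Stag1-206 and Stag2-203 were 70.6% identical and those of Pds5a-201 and Pds5b-201 70.1%. Overlapping genes with a listed value held few counts, and some that overlap Stag1, Pds5a or Pds5b had no listed value. Gm5914, on the opposite strand within the Ctcf locus, had 10 and 7 expected counts against 2911 and 2854 for Ctcf, and the strand setting of the counting is not given in the sources used here. Inside Stag1, on the same strand, Gm37204 had 59 and 65 and Gm3081 47 and 93, against 2434 and 2081 for Stag1.

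The transcript tables divide each gene's reads among annotated transcripts, and here the genes differed far more than at gene level. Of the 49 transcripts listed, 26 held 5% or more of their gene's TPM in at least 1 library, and 5 had no count. Rad21, Nipbl and Pds5a were listed with 1 transcript each, so nothing can be said of their isoforms. A later annotation release, used here for names, lists 2, 1 and 14 for them. The other 6 genes had 3 to 17 transcripts listed.

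None of these 6 was led by a transcript without a coding sequence when both libraries were averaged, against 12.2% of detected genes with several transcripts. Stag1 was led by one, the retained-intron transcript Stag1-217, in replicate 1 taken alone. It was also the 1 of 6 whose leading transcript differed between the libraries, against 22.5% of such genes. The median share of TPM on transcripts without a coding sequence was 18.6% over the 6 genes and 14.6% over 6181 genes.

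Smc3 was the simplest, with 97.1% and 95.1% of its TPM on the complete coding transcript Smc3-201. For Ctcf the coding transcript Ctcf-201 held 80.0% and 77.9%. The rest of Ctcf lay mostly on the noncoding Ctcf-204 (9.21% and 11.5%) and the retained-intron Ctcf-206 (8.50% and 8.54%). In Smc1a, the coding Smc1a-201 held 69.6% and 70.9%. Smc1a-206, annotated as a target of nonsense-mediated decay, the pathway that removes transcripts with early stop codons, held 11.0% and 16.4%, and the retained-intron Smc1a-205 held 10.5% and 7.04%. These minor transcripts are short, and TPM weights a short transcript more per read. By reads, the complete coding transcripts held 99.6% of Smc3, 92.8% of Ctcf and 91.3% of Smc1a.

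Stag1 stood apart from the other 5 genes in its mix. Complete coding transcripts held 37.6% and 31.9% of its TPM, or 7.53 and 6.28 TPM, and 60.9% and 57.0% of its reads. Of the 6181 detected genes with several transcripts, 14.0% had a smaller share of TPM on complete coding transcripts, and the median gene had 74.4%. The other 5 genes had mean shares from 70.3% to 96.1%. The 77.5% of Pds5b includes 19.2% on Pds5b-203, which has a shorter coding sequence. Retained-intron transcripts took 31.1% and 27.1% of Stag1 TPM, and transcripts annotated for nonsense-mediated decay took 25.9% and 23.5%. These are annotation classes, and whether their reads in total RNA came from mature transcripts was not tested.

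Among single transcripts of Stag1, the coding Stag1-206 held 23.3% and 26.7% of TPM, and the coding Stag1-201 held 14.3% and 5.18%. Stag1-217 held 25.7% and 16.7%. The decay-annotated Stag1-216 held 21.3% and 15.9%, and Stag1-208, of the same class, 4.64% and 7.61%. Stag1-209, Stag1-211 and Stag1-215 passed 5% in replicate 2 only, at 5.23%, 5.63% and 6.34%.

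Stag1-217 is a single exon of 3607 nt (chr9:100955769-100959375). It contains all 2011 nt of the last exon of Stag1-206 and runs 830 nt past its end, and 58.0% of its bases lie in exons of complete coding transcripts. In Pds5b, the retained-intron transcript Pds5b-204 shares 2668 of the 2878 nt of the last exon of Pds5b-201. Reads in those shared bases do not tell the transcripts apart, and their division rests on the authors' quantification.

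**Figure D2:**
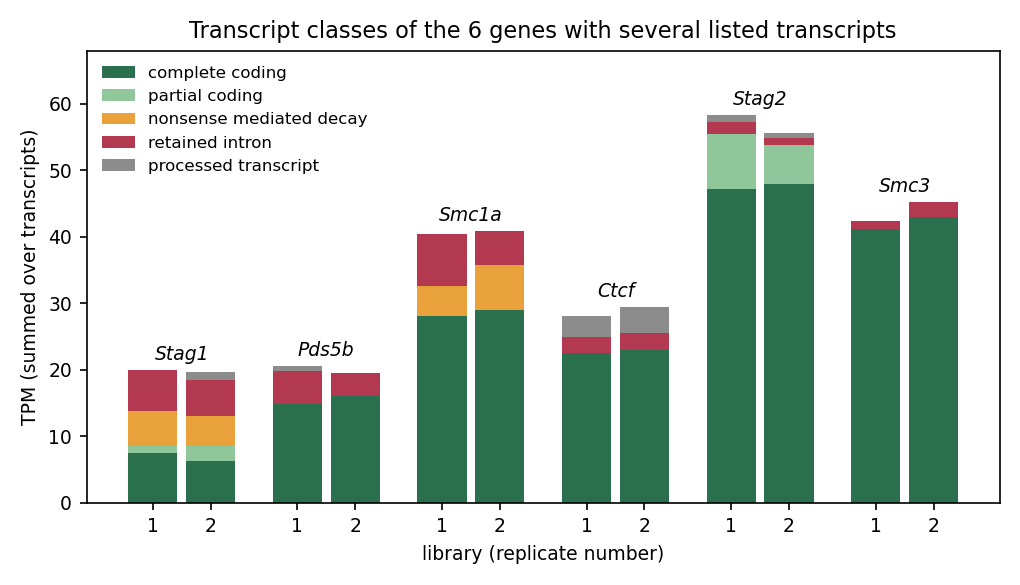
TPM of each of the 6 genes with several listed transcripts, summed by annotated transcript class and stacked, with 1 bar per library. Dark green marks transcripts with a complete coding sequence: 7.53 and 6.28 TPM for Stag1, under bars of 20.06 and 19.72 TPM, and 47.22 and 47.89 TPM for Stag2.

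Stag2 was mostly complete coding, at 81.0% and 86.0% of TPM and 98.0% and 98.8% of reads. Counted over complete coding transcripts only, Stag2 exceeded Stag1 6.27 times in replicate 1 and 7.63 times in replicate 2 (6.95 ± 0.958), against 2.87 ± 0.0592 over all transcripts. The STAG sum then stood at 54.75 and 54.17 TPM, below Rad21. The size of the Stag2 excess thus changed with which transcripts were counted, and its direction did not.

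Stag2-201 led in both libraries, with 52.6% and 69.8% of Stag2 TPM. Stag2-202, which has the same length of coding sequence, was far apart between libraries, with 12.29 and 1.51 TPM and 2365.67 and 275.65 expected counts. The deposited credibility bounds of its level, 7.66 to 14.8 TPM in replicate 1 and 0.406 to 4.10 TPM in replicate 2, did not overlap. Stag2-203 held 7.30% and 13.5% and the partial Stag2-204, 294 nt long, 14.1% and 5.66%, although the latter drew only 47.45 and 16.92 expected counts. The first exon of Stag2-202 starts 1289 nt upstream of that of Stag2-201, and that of Stag2-203 starts 1384 nt upstream.

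Both STAG genes carry an alternative exon of 111 nt, which is 37 codons and keeps the reading frame, as exon 31 of 34. In Stag1-206 it lies at chr9:100953486-100953596 and in Stag2-203 at chrX:42266366-42266476, both on the plus strand of mm10. The exons are printed here 5′ to 3′ because the share of transcripts that carry them differed between the paralogs. Capitals mark the bases that differ at the same place in the other gene.
Stag1 exon 31: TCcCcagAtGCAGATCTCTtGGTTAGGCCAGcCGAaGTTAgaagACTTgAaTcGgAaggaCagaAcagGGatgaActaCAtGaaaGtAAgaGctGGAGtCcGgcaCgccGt
Stag2 exon 31: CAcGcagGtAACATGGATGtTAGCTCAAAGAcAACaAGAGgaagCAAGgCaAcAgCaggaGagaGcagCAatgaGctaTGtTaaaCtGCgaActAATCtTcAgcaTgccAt

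Compared base by base without gaps, 51 of the 111 bases were identical (45.9%). The whole coding sequences of these transcripts were 70.6% identical over the aligned bases of an alignment with gaps. Of the 36 codons that lie whole within the exon, 9 encode the same amino acid. The exons were thus equal in length and place. Their identity and that of the whole coding sequences were measured in unlike ways, so whether the exons are further apart was not tested.

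Of the TPM of complete coding Stag1 transcripts, the transcript with the exon, Stag1-206, held 62.0% in replicate 1 and 83.8% in replicate 2. Of that of Stag2, the transcript with the exon, Stag2-203, held 9.02% and 15.6%. The means were 72.9% ± 15.4 and 12.3% ± 4.68 (SD, n = 2). Every Stag1 value lay above every Stag2 value, so in these libraries Stag1 was mostly assigned to the long form and Stag2 mostly to the short form. By reads the values were 63.1% and 84.4% for Stag1 and 9.47% and 16.4% for Stag2. The deposited credibility bounds of Stag1-206 and Stag1-201 overlapped in replicate 1, at 2.78 to 5.36 and 1.49 to 3.91 TPM. In replicate 2 they did not, at 4.07 to 5.93 and 0.181 to 1.54 TPM. The compared Stag2 transcripts also differ in their first exons, and Stag1-206 and Stag1-201, at 6186 and 5909 nt, differ in length by more than the exon. For neither gene do the shares come from reads of this exon alone.

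**Figure D3:**
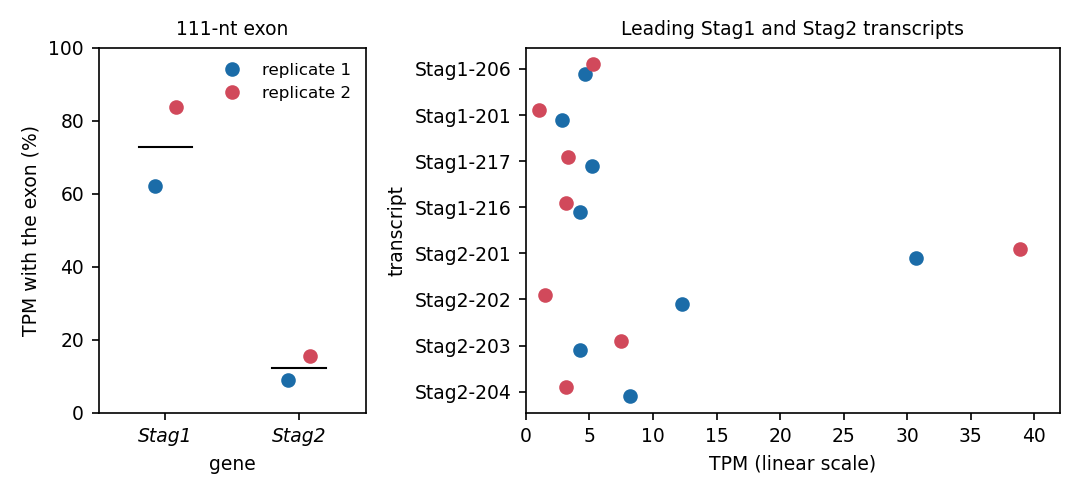
Left, percent of the TPM of complete coding transcripts assigned to the transcript with the 111-nt exon, with 1 point per library and a line at the mean (72.9% for Stag1, 12.3% for Stag2). Right, TPM of the leading transcripts on a linear axis, where Stag2-202 lies furthest apart in proportion, at 12.29 and 1.51 TPM.

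Pds5b was divided among 4 main transcripts. Pds5b-201 held 39.3% and 47.6% of TPM, Pds5b-203 17.5% and 20.8%, Pds5b-202 16.0% and 13.7%, and the retained-intron Pds5b-204 23.8% and 16.2%. Complete coding transcripts together held 72.8% and 82.1%, which put Pds5a at 4.50 ± 0.226 times Pds5b by that count. These values include Pds5b-203, whose coding sequence of 2103 nt is far shorter than the 4338 nt of Pds5b-201. Without it the share would be lower and the ratio higher.

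Pds5b-201 and Pds5b-202 encode nearly the same protein. Pds5b-202 has 6 more bases at a splice donor (chr5:150796671-150796676) and 3 more at a splice acceptor (chr5:150801119-150801121), both in frame. They are shown because these small shifts are what parts the coding sequences of these transcripts. Capitals mark the extra bases, with 18 coding bases on either side.
Pds5b donor: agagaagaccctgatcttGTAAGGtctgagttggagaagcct
Pds5b acceptor: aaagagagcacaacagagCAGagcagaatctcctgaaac
The extra donor bases begin with GT, the letters at the start of most introns, and the extra acceptor bases end with AG, the letters at the end of most introns. Pds5b-202 held 3.28 and 2.67 TPM against 8.06 and 9.28 TPM for Pds5b-201, and the longer form was the less abundant in both libraries.

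The other genes that load, release and protect cohesin were all detected, 10 of 10, with a median of 12.3 TPM. Wapl, which encodes the protein that opens the ring, was the highest at 56.16 and 59.30 TPM, 1.79 ± 0.0468 times Nipbl. Esco2, an acetyltransferase gene that acts on SMC3 in S phase, was at 41.37 and 40.19 TPM, 3.19 ± 0.0423 times its paralog Esco1. Pttg1, which encodes the inhibitor of separase, was at 19.83 and 17.63 TPM. At the low end, Hdac8, the SMC3 deacetylase gene, was at 2.90 and 4.02 TPM, and Mau2, the partner of Nipbl in the loader, at 5.55 and 6.44 TPM. Nipbl exceeded Mau2 5.42 ± 0.503 times although their proteins form a pair.

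Paralogs that build cohesin in germ cells were mostly at 0. Smc1b, Rad21l, Stag3 and the CTCF paralog Ctcfl had no count in either library, where 3 counts would have given between 0.0232 and 0.0625 TPM. Rec8, the meiotic kleisin gene, was the exception among the 5, at 21.49 and 22.05 TPM from 1183 and 1147 expected counts. Rad21 exceeded it 3.36 ± 0.0958 times.

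Condensin, the related SMC complex that compacts mitotic chromosomes, was detected in 8 of 8 genes with a median of 28.3 TPM. Ncapd2 stood at 99.10 and 104.68 TPM, Smc4 at 101.46 and 92.48 TPM and Smc2 at 44.22 and 39.18 TPM, so the top pair lay above Rad21. Ncapg2 (18.74 and 19.71 TPM) and Ncapd3 (18.91 and 20.51 TPM) were the lowest. The SMC5/6 complex, which acts in DNA repair, was detected in 6 of 6 genes with a median of 15.7 TPM. Smc5 was at 15.75 and 16.21 TPM, Smc6 at 15.13 and 17.13 TPM, Nsmce4a at 17.95 and 22.55 TPM, Nsmce2 at 14.81 and 15.90 TPM, Nsmce1 at 12.42 and 10.35 TPM, and Nsmce3 at 2.02 and 1.40 TPM. Each cohesin ring gene (Rad21, Smc1a, Smc3) lay above every SMC5/6 gene.

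Genes of proteins that work with CTCF or beside it at loop anchors were detected in 14 of 14 cases, with a median of 34.6 TPM. Npm1, a nucleolar chaperone gene, stood at 1186.66 and 1204.15 TPM, Ybx1, an RNA and DNA binding protein gene, at 563.85 and 584.17 TPM, and the RNA helicase gene Ddx5 at 167.71 and 181.28 TPM. Zfp143, a zinc finger gene, was the lowest at 5.93 and 6.99 TPM, followed by Taf3, a gene of the TFIID complex, at 9.29 and 6.38 TPM. Of all 43 genes in these lists, 39 were detected, against 40.2% of all nuclear protein-coding genes. None was 2-fold apart between the libraries, against 1.95% of nuclear protein-coding genes with a mean level of 1 TPM or more. With so low a share, this does not set the listed genes apart.

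**Figure D4:**
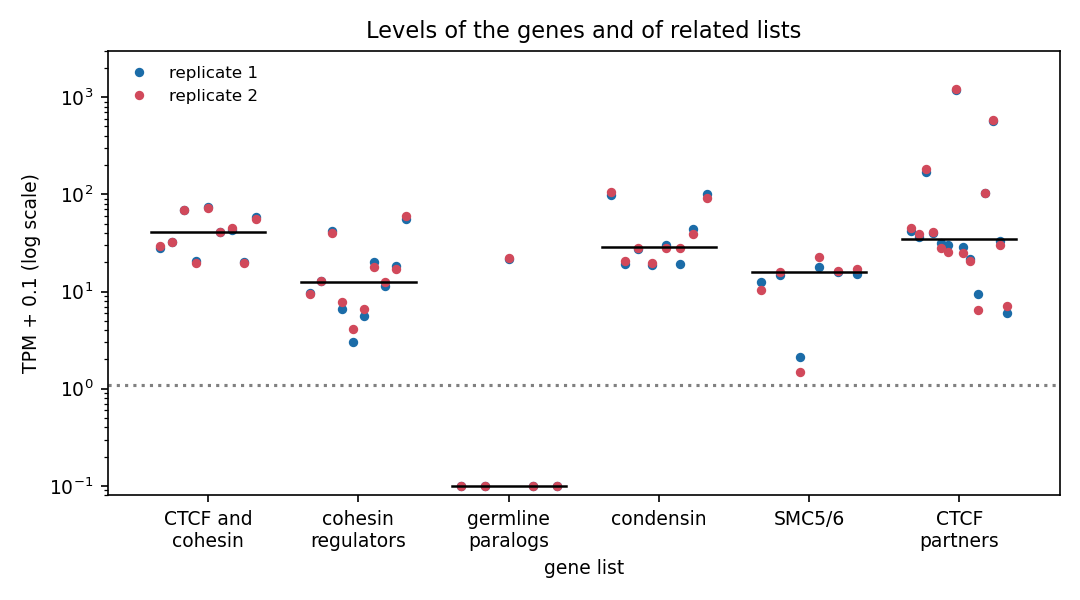
TPM + 0.1 of every gene in each list on a log axis, with 1 point per library, a line at the list's median and a dotted line at the detection threshold of 1 TPM. The 9 looping genes lie between 19.49 and 73.58 TPM, the CTCF partners reach highest, and of the germline paralogs only Rec8 lies above the dotted line.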

How the data were processed

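Total RNA of 2 libraries of 1 group was analysed from gene and transcript tables. Per the labels, reads were placed on mm10, and per the file headers the annotation was GENCODE M4. Column names are those of RSEM. The version of the quantifier, the aligner and the strand setting were not given in the sources used here. Expected counts were deposited by the authors as reads estimated per gene or transcript, not normalized. TPM values, deposited by the authors, are scaled to a fixed total over all features, spike-ins included. FPKM values were deposited by the authors and were not analysed further. The share of a gene's TPM on each of its transcripts was deposited as a percent by the authors, and was recomputed here from TPM.

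Names, gene types and structures came from GENCODE M21 on the same assembly, matched by identifier without version (42462 of 43346 genes). Of the 49 transcripts, 47 have the same length there. The exceptions are the sole listed transcripts of Rad21 (3604 nt as quantified, 3956 nt in M21) and Nipbl (8815 and 9423 nt). How this would change their levels was not tested. Complete coding means a protein-coding transcript whose coding sequence is not marked as incomplete at either end, whatever its length. Sequences came from M21 transcripts. The lists were cohesin regulators, germline paralogs, condensin, SMC5/6 and CTCF partners. The 9 genes and all lists were chosen with earlier results of these data known. The text names all 9, the 3 highest and 2 lowest of each other list by mean TPM (all of a list of 6 or fewer), and transcripts with 5% or more of gene TPM in either library. Ncaph2, Gm genes, and the exon comparison were chosen after values were seen. Credibility bounds are the authors' and do not cover the spread between replicates.

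Ratios were taken in each library and averaged. Counts rounded to whole numbers were scaled by TMM (edgeR 4.0.16, R 4.3.3) and DESeq2 1.42.0 size factors as alternatives, a step tested on simulated data. Python 3.11.15, pandas 2.3.3, numpy 2.4.6, Biopython 1.88 and matplotlib 3.10.9 did the rest. Other alternatives were posterior mean TPM, values rescaled to nuclear protein-coding genes, other thresholds, coding transcripts only and each library alone.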

Additional observations from a re-analysis of the deposited data

How the results depend on the processing

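The counts of detected genes, 9 of 9 for CTCF and cohesin, stayed within 1.5 times under every threshold, scaling and single library tried. None of the ratios listed next changed direction, and of the log2 ratios of the 9 genes only that of Nipbl did, as given above. The STAG sum, 1.05 times Rad21 over all transcripts, lay below Rad21 over complete coding transcripts. The ratios moved by more than their SD in these cases. Stag2 over Stag1 was 2.71 on posterior mean TPM, 3.99 on expected counts not divided by length, 4.06 over transcripts with a coding sequence and 6.95 over complete coding transcripts. Pds5a over Pds5b was 2.60 on counts and 4.50 over both kinds of coding transcript. Smc1a over Smc3 was 0.717 on counts, 0.812 over transcripts with a coding sequence and 0.680 over complete coding ones. Rad21 over Ctcf was 2.84 on counts and 3.21 over both kinds of coding transcript. Nipbl over Mau2 was 9.0 on counts. The number of genes led by a transcript without a coding sequence was 1 (Stag1) without replicate 2 and 0 without replicate 1. For each of the shifts on counts or over fewer transcripts, the alternative differs from the main value by construction in length correction or in the transcripts summed. For the posterior mean the cause was not tested.

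With either library alone, Stag2 over Stag1 ran from 2.82 to 2.91, Pds5a over Pds5b from 3.39 to 3.57, Smc1a over Smc3 from 0.905 to 0.954, Rad21 over Ctcf from 2.46 to 2.62 and Nipbl over Mau2 from 5.06 to 5.77. The exon share ran from 62.0% to 83.8% for Stag1 and from 9.02% to 15.6% for Stag2. The ratios over complete coding transcripts and the exon shares were chosen after seeing the data. No paired analysis was possible because both libraries belong to 1 group. With n = 2 the SD itself is imprecise, and transcript shares of Stag1 and Stag2 are less certain than gene levels.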

Other observations

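Among the 43 genes of the related lists, the 4 with the largest differences in TPM between the libraries are named here after their values were seen. The log2 ratio of TPM was 0.56 for the condensin II gene Ncaph2, -0.54 for Taf3, -0.50 for Nsmce3 and 0.46 for Hdac8. Expected counts were 1446.99 and 1569.97 for Ncaph2, 972 and 819 for Taf3, 388 and 256 for Nsmce3, and 142 and 214 for Hdac8. The average transcript length differed between libraries for Ncaph2 (2436 and 1910 nt), Taf3 (3291 and 4217 nt) and Hdac8 (1606 and 1823 nt). Their differences in TPM therefore do not come from counts alone. Among nuclear protein-coding genes with a mean level of 1 TPM or more, 8.67% had a larger difference than Ncaph2. The share was 9.76% for Taf3, 11.4% for Nsmce3 and 13.2% for Hdac8.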
